A study of Mus musculus with 6 samples.

Results

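The anaphase-promoting complex (APC/C), its regulators and securin were followed in single mouse oocytes. Members were the probes annotated to 1 of 10 gene symbols: the activators Cdc20 and Fzr1, the inhibitors Fbxo5 and Fbxo43, the subunits Anapc1, Anapc4, Cdc16 and Cdc27, securin (Pttg1) and separase (Espl1). Of these, 7 had a probe, 1 each, among the 33012 on the array, while Fbxo43, Cdc27 and Espl1 were named by no single-symbol probe and were not analysed here. Each array measured the RNA of 1 oocyte. The 3 Ago2-deficient oocytes were mature and came from [Ago2F/F, Zp3-Cre] females, in which Cre, driven by the promoter of a zona pellucida gene, removes Ago2 in growing oocytes. The study describes deletion in nearly all, not all, oocytes of such females. The 3 wild-type oocytes are labelled as germinal vesicle (GV) oocytes of adult females, freed of cumulus cells with hyaluronidase. The labels place their collection in the oviduct, which in the methods is the source of ovulated metaphase II oocytes, also from adult females, and the stage is given here as labelled. Genotype and stage differ together between the groups and cannot be told apart.

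The APC/C is a ubiquitin ligase that marks securin and cyclin B for destruction, which frees separase to cut cohesin and lets chromosomes part. It works only with an activator bound. In mouse oocytes Fzr1 (also called Cdh1) helps to keep the prophase arrest by limiting cyclin B, Cdc20 takes over for the first meiotic anaphase, and Fbxo5 (Emi1) and its relative Fbxo43 (Emi2) block the complex. A fully grown oocyte makes little new RNA, and mRNA levels at maturation also follow storage and decay.

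The promoters of the 3 members that passed the test for a difference are printed here because 1 of these genes was higher and 2 were lower. Each runs from 250 bases before to 50 after the RefSeq start site (build GRCm38.p6), 5′ to 3′ on the gene's strand. Capitals mark matches on either strand to the CHR element of cell cycle promoters (TTTGAA) and to the CCAAT box (CCAAT), and the 2 motifs did not overlap in these sequences.
Fbxo5 (chr10:5805416-5805715, minus strand): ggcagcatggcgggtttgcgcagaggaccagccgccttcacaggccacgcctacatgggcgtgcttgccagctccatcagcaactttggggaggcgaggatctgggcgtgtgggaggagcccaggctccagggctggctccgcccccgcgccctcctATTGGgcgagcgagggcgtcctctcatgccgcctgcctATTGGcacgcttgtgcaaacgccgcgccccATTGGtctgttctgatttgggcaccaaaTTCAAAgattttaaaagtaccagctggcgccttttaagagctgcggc
Fzr1 (chr10:81378321-81378620, minus strand): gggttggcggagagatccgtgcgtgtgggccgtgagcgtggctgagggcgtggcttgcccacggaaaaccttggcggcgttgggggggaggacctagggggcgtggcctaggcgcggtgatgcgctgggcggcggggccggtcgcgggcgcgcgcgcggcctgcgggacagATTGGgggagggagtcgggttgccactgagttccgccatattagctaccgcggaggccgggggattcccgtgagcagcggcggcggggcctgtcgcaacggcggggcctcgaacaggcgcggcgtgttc
Cdc16 (chr8:13757406-13757705, plus strand): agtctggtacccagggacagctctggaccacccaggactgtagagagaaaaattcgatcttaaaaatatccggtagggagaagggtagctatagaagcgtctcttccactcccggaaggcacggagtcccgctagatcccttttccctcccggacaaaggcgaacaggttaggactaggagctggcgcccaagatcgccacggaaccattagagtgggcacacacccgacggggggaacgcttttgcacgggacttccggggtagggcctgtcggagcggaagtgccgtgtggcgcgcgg
Fbxo5 held 3 CCAAT boxes, at 93, 55 and 25 bases before the start site, and 1 CHR match just after it. Fzr1 held 1 CCAAT box, and Cdc16 neither motif. The motifs did not set the called members apart. Cdc20, which was not called, held 1 CHR match and 2 CCAAT boxes. Espl1 held 1 of each and Cdc27 held 2 CCAAT boxes, while Anapc1, Anapc4 and Pttg1 held neither motif. Over all 32851 promoters of the table, 37.4% held CCAAT and 17.9% TTTGAA. The E2F words TTTCCCGC, TTTGGCGC, TTTGCCGC and TTTCGCGC were in 2.26% of promoters and in none of the 9 members with a promoter in the table. A match is a string of letters, and binding was not measured.

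Detection was set at a signal-to-noise ratio of 3 or more. The Ago2 probe was detected in no Ago2-deficient oocyte and in 1 GV oocyte (ratio 5.24), so it does not check the genotype. On the Ago2-deficient arrays 4620 to 6798 probes were detected and on the GV arrays 10650 to 11334. All 13 probes of oocyte markers were detected in every GV oocyte and 9 in every Ago2-deficient oocyte. Their summed quantile-normalized levels were 1630000 to 1920000 in Ago2-deficient and 5090000 to 5480000 in GV oocytes. Of 11 probes of cumulus and granulosa markers, 0 to 2 were detected per Ago2-deficient oocyte and 4 to 6 per GV oocyte, with summed quantile-normalized levels of 2360 to 3220 in Ago2-deficient and 4310 to 6960 in GV oocytes, and 4 were detected nowhere. Inha, Hsd17b1 and Nr5a2 were the 3 of that list detected in every GV oocyte. Of 8 other ovarian and blood cell probes, 0 to 1 were detected per Ago2-deficient oocyte and 1 to 2 per GV oocyte, with summed levels of 2070 to 4260 in Ago2-deficient and 1040 to 1650 in GV oocytes. Each sum includes undetected probes, which are most of the probes of both these lists on the Ago2-deficient arrays. The sums of these lists therefore do not measure the amount of such cells. The part of these cells and of the lower detection in the differences was not tested. The levels given are the authors' quantile-normalized log2 signals, in which a value reflects the rank of a probe on its array. Differences are Ago2-deficient mature minus wild-type GV, fitted with limma over the 7915 genes that every array of 1 or both groups detected. Of these, 4568 have a single symbol, and each other probe, with no symbol or several, is counted as a gene of its own. Shares of all tested genes include these probes. A call needed both a fold change over 2 and an adjusted p under 0.05. By this rule 10 of the 13 oocyte markers were lower and 0 higher, beside 44.8% and 17.4% of all tested genes.

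Among the members tested, Fbxo5 was higher in Ago2-deficient mature oocytes, Fzr1 and Cdc16 were lower, and Cdc20, Anapc4 and Pttg1 were not called. Anapc1 was detected too rarely to be tested. So 1 of 6 tested members was called higher and 2 lower, beside 17.4% of all tested genes called higher and 44.8% called lower. Fzr1 and Cdc16 were tested through their detection on the GV arrays.

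**Figure D1:**
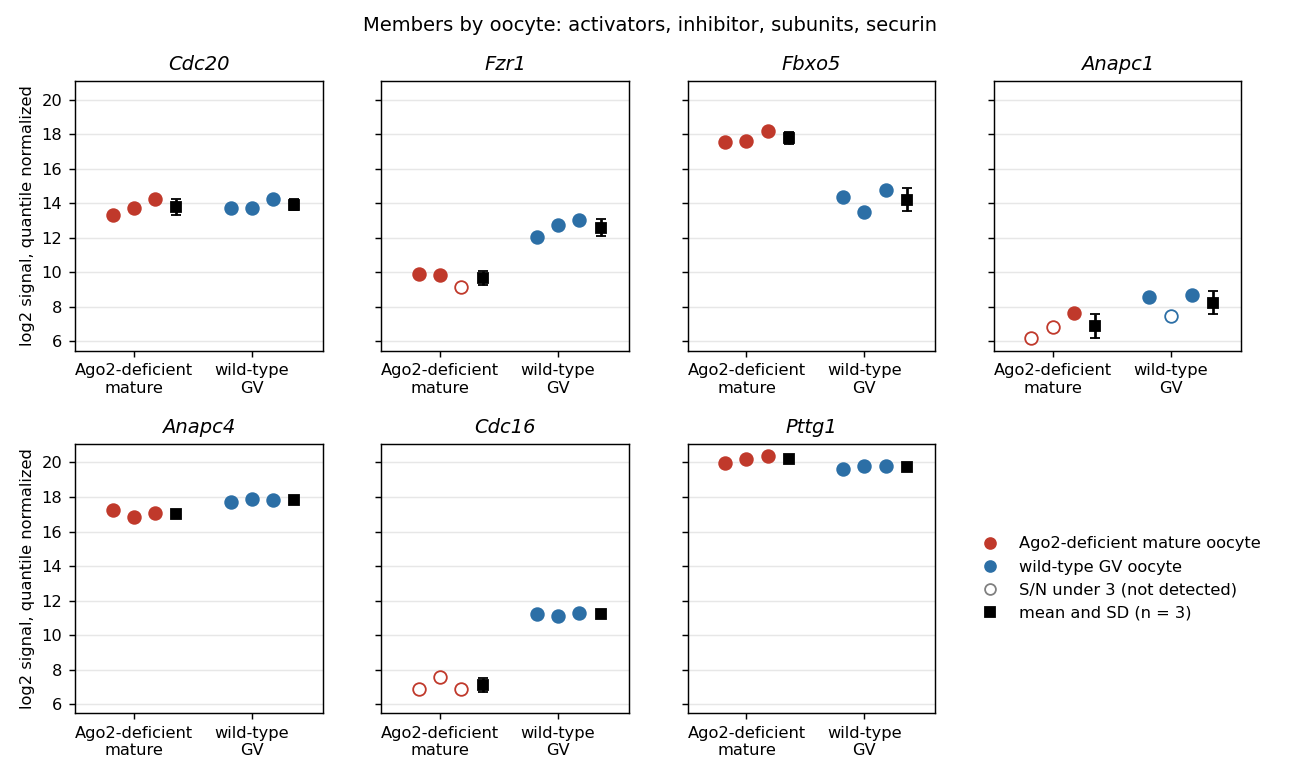
Quantile-normalized log2 signal (vertical axis) of the 7 members, with 3 Ago2-deficient mature oocytes at left and 3 wild-type GV oocytes at right for each gene. A circle is 1 oocyte, open where the signal-to-noise ratio is under 3, and a square with its bar gives the mean and SD. The Fbxo5 circles of Ago2-deficient oocytes lie above those of GV oocytes, the Fzr1 and Cdc16 circles below, and the Cdc20 circles overlap.

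The 2 activators differed in their values. For Cdc20 (probe 913394), the activator that brings securin to the complex, the log2 signal was 13.34, 13.73 and 14.27 in Ago2-deficient oocytes and 13.76, 13.76 and 14.28 in GV oocytes. The groups overlapped, and every array detected the gene. The log2 difference was -0.15 (standard error, SE, 0.38, 95% interval -1.06 to 0.76, adjusted p = 0.748). The interval reached just past a 2-fold decrease. The deposited signal before scaling did not overlap, at 2790, 10142 and 10399 in the Ago2-deficient and 32936, 29358 and 38471 in the GV oocytes. Relative to the other probes Cdc20 thus stood at a similar level, while its unscaled signal was lower on the mutant arrays.

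For Fzr1 (probe 578953), the activator of the prophase arrest, the log2 signal was 9.93, 9.87 and 9.18 in Ago2-deficient oocytes and 12.04, 12.72 and 13.02 in GV oocytes. All mutant values lay below all GV values. The mean was 9.66 ± 0.42 in Ago2-deficient and 12.59 ± 0.50 in GV oocytes (SD, n = 3 arrays each), a log2 difference of -2.93 (SE 0.41, adjusted p = 0.00112), or 7.62-fold lower. The difference was -1.73 with cyclic loess and -5.65 once arrays were brought to a common median, so the fold depended on the scaling. Fzr1 was detected in 2 of the 3 mutant oocytes, at signal-to-noise ratios of 6.13, 5.84 and 1.88, and in all GV oocytes, at 49.6, 48.4 and 46.2, so its fold rests in part on a signal under the detection limit.

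For Fbxo5 (probe 364405), the inhibitor also known as Emi1, the log2 signal was 17.57, 17.59 and 18.21 in Ago2-deficient oocytes and 14.39, 13.49 and 14.76 in GV oocytes. Every mutant oocyte lay above every GV oocyte, and all 6 arrays detected the gene. The mean was 17.79 ± 0.36 in Ago2-deficient and 14.21 ± 0.65 in GV oocytes (SD, n = 3 arrays each), a log2 difference of 3.58 (SE 0.44, adjusted p = 0.000709), or 11.9-fold. Before scaling the signal was 74110, 243253 and 206690 in the mutant and 46696, 24356 and 50368 in the GV oocytes, which also did not overlap. The signal-to-noise ratio went the other way, at 67.4, 46.6 and 66.8 in the mutant and 101, 87.4 and 102 in the GV oocytes. For all 7 members the mean of that ratio was lower on the mutant arrays.

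**Figure D2:**
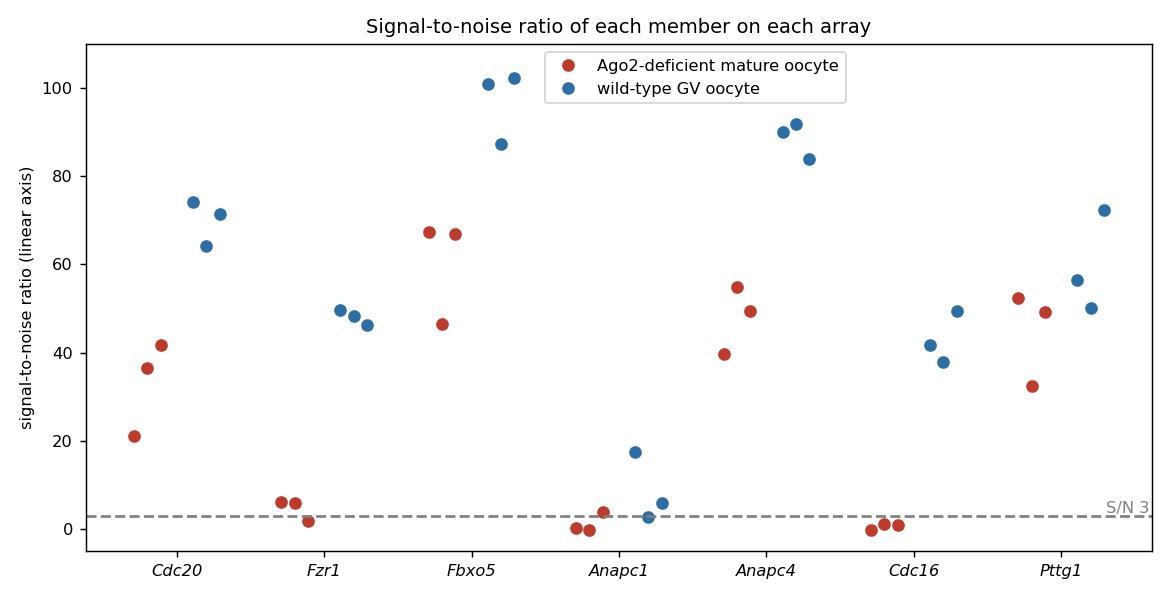
Signal-to-noise ratio (vertical axis, linear) of the 7 members; each circle is 1 array, Ago2-deficient mature at left and wild-type GV at right within a gene, and the dashed line is the detection limit of 3. All 3 mutant circles of Cdc16 lie under the line, at -0.35, 1.06 and 0.92, while its GV circles lie between 37.9 and 49.4.

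The subunits did not share 1 pattern. For Cdc16 (probe 922800), a subunit built of tetratricopeptide repeats that is also called APC6, the log2 signal was 6.87, 7.56 and 6.89 in Ago2-deficient oocytes and 11.24, 11.09 and 11.26 in GV oocytes. The gene was detected in no mutant oocyte and in all GV oocytes. On the quantile-normalized values it was 17.0-fold lower (log2 difference -4.09, SE 0.34, adjusted p = 0.000208). That fold does not carry over to other scalings, under which the fitted difference ran from -1.93 with cyclic loess to -5.61 with a common median. Raising undetected signals to the lowest detected signal of their array left the difference at -4.09. No Cdc16 signal lay under that lowest signal, so the step could not change it and sets no limit. The fold rests on undetected mutant signals and is not a minimum. The same holds for the folds given below for other genes detected in no mutant oocyte. Of all tested genes 32.8% were likewise detected in no mutant oocyte. For Anapc4 (probe 922986), a scaffold subunit, the log2 signal was 17.26, 16.81 and 17.06 in mutant oocytes and 17.69, 17.91 and 17.83 in GV oocytes. The groups did not overlap, and the log2 difference was -0.76 (SE 0.31, unadjusted 95% interval -1.50 to -0.03). It missed both conditions for a call, with a fold of 1.70, under 2, and an adjusted p of 0.0665. Groups also did not overlap in 70.4% of all tested genes.

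For Anapc1 (probe 447120), the largest scaffold subunit, the log2 signal was 6.21, 6.82 and 7.64 in mutant oocytes and 8.57, 7.48 and 8.68 in GV oocytes. Its signal-to-noise ratio reached the limit in 1 mutant oocyte (3.93) and in 2 GV oocytes (17.4 and 5.86), so it was left out of the fit. With no filter on dim probes its log2 difference was -1.35 (adjusted p = 0.170), and without GV replicate 2 it was tested and called lower, at -1.73.

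Securin was bright on every array. For Pttg1 (probe 915221), the inhibitor of separase, the log2 signal was 19.98, 20.23 and 20.35 in Ago2-deficient oocytes and 19.60, 19.81 and 19.81 in GV oocytes. The mutant values all lay above the GV values by a small margin, and the log2 difference of 0.45 was not called (SE 0.30, 95% interval -0.28 to 1.17, adjusted p = 0.238). The unscaled signals overlapped, at 572119, 1423026 and 1096582 in the mutant and 1084176, 1136210 and 978340 in the GV oocytes.

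Because the mutant arrays detected fewer probes, the members were set against the median of all tested genes under 6 scalings. That median was -1.39 on the quantile-normalized values, -3.08 with arrays scaled to a common median, -1.98 with no scaling, -0.36 with cyclic loess, and -0.87 or -0.42 with arrays centred on the mean or the median of probes detected on all 6 arrays. Relative to it, Fbxo5 was higher by 3.80 to 4.97 on the log2 scale, Fzr1 differed by -2.57 to -1.37, Cdc16 by -2.70 to -1.57, and Pttg1 by 0.32 to 1.83. Cdc20, at -0.35 to 1.24, and Anapc4, at -0.47 to 0.62, changed side with the scaling. No scaling, a common median and both centrings differ only by a constant for each array. They therefore give the same relative value (3.98 for Fbxo5, -2.57 for Fzr1) and are not separate checks of it. Fzr1 and Cdc16 were called lower under all 6 scalings, but so were 60.4% of all tested genes with no scaling, 31.8% with cyclic loess, 39.7% after centring on the mean and 31.3% after centring on the median. The unshifted difference of Fbxo5 was positive under all 6 and called in 5, being 0.90 (adjusted p = 0.194) with arrays scaled to a common median. Before scaling the median signal of all probes was 255, 258 and 168 on the mutant and 116, 103 and 93.2 on the GV arrays. Since 14.0% to 34.3% of probes were detected per array, a common median mainly aligned undetected signals. It lowered mutant values against GV values. With a common median 78.6% of all tested genes were called lower and 3.93% higher. The share called higher was 7.69% with no scaling, 24.7% with cyclic loess, and 16.4% and 20.1% with the centrings. Among the 2497 genes detected on all 6 arrays, 1 of 4 members (Fbxo5) was called higher beside 45.2% of genes, and 0 lower beside 21.7%. The median difference of those genes was 0.83 on the quantile-normalized values, not -1.39. Fbxo5, at 3.58, lay above it, while Pttg1 (0.45), Cdc20 (-0.15) and Anapc4 (-0.76) lay below it. The place of a member relative to the median thus also depends on which genes are counted. Cdc20 was called lower with a common median (-3.43), with no scaling (-2.33) and with centring on the mean (-1.22), and Anapc4 with the first 2 of these (-2.97 and -1.87). Pttg1 was called higher, at 1.41, only with centring on the median, a scaling added after the data were seen, and was at -1.25, -0.14 and -0.03 with a common median, no scaling and cyclic loess.

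**Figure D3:**
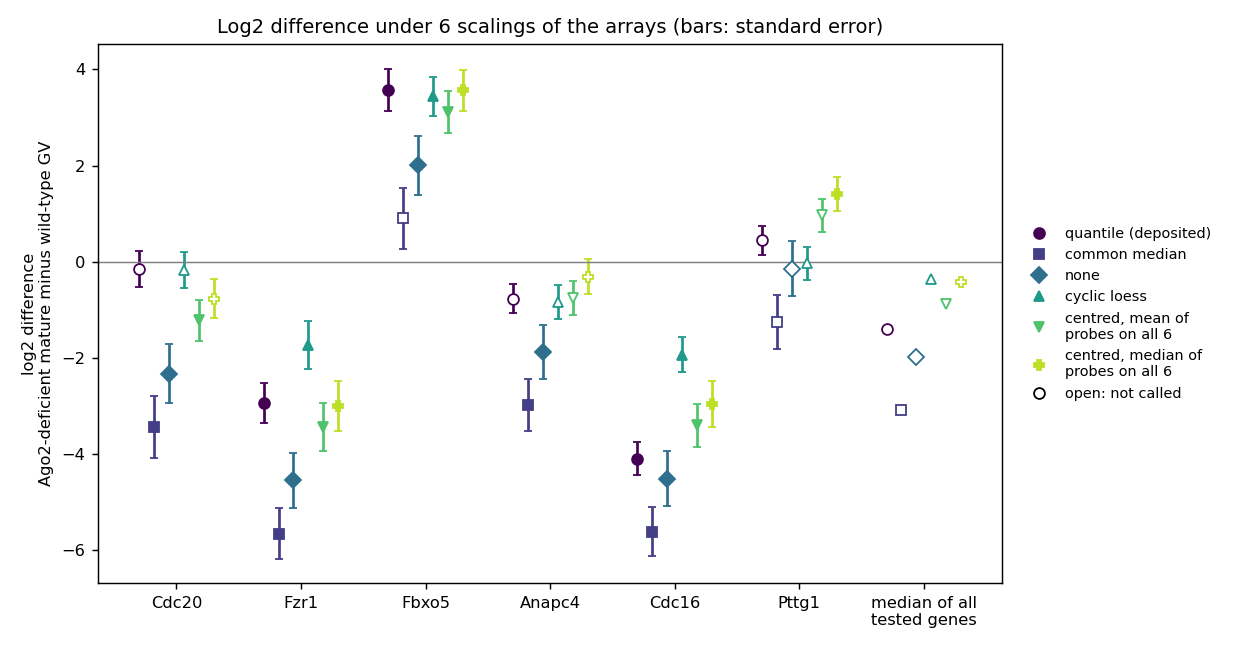
Log2 difference, Ago2-deficient mature minus wild-type GV (vertical axis), of the 6 tested members and of the median of all tested genes under 6 scalings; bars are standard errors and filled symbols are called. Fbxo5 stays above 0 and Fzr1 and Cdc16 below 0 throughout, while Pttg1 lies on both sides.

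A ratio of 2 members within 1 oocyte does not move with a factor common to the array. The log2 ratio of the deposited signals of Fbxo5 over Cdc20, inhibitor over activator, was 4.73, 4.58 and 4.31 in Ago2-deficient oocytes and 0.50, -0.27 and 0.39 in GV oocytes. The difference was 4.33, or 20.2-fold (3.73 on quantile-normalized values and 3.61 with cyclic loess). Only the difference between groups has a meaning here, since probes differ in brightness. Fbxo5 over Anapc4 differed by 3.88 (4.34 on quantile-normalized values and 4.27 with cyclic loess), and Fbxo5 over Pttg1 by 2.15 (3.13 and 3.47). Pttg1 over Cdc20 differed by 2.18 on the deposited signals, but by 0.60 on quantile-normalized values and 0.14 with cyclic loess. The 3 ratios of Fbxo5 share that gene, which was taken because it was called higher, so they are not separate observations. They were chosen after the data were seen and are given without a test. Ratios over Fzr1, Cdc16 and Anapc1 are not given, since these were undetected on some arrays.

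**Figure D4:**
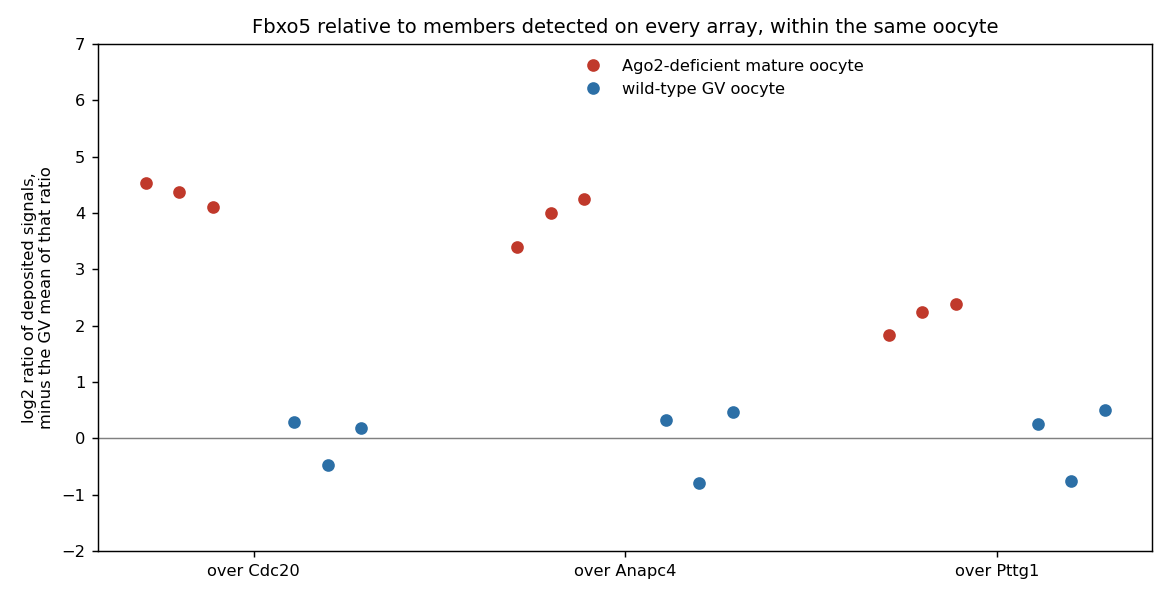
Log2 ratio of the deposited signal of Fbxo5 to that of Cdc20, Anapc4 or Pttg1, the other members detected on every array, in the same oocyte, minus the GV mean of that ratio (vertical axis); each circle is 1 oocyte, Ago2-deficient mature at left and wild-type GV at right. The mutant circles lie above the GV circles in these ratios, which share Fbxo5.

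Other genes of the pathway were read from 6 lists, in which 60 genes had a probe and 38 were tested. Of the 38, 4 were higher (10.5%) and 20 lower (52.6%), beside the 17.4% and 44.8% of all tested genes. Detection on the GV arrays alone let in 24 of the 38, among them 16 of the 20 lower genes, so the counts of lower genes in the lists are a description. The split moved with the scaling, to 0 and 34 under a common median, 1 and 29 unscaled, 5 and 12 with cyclic loess, and 3 and 22 or 3 and 16 with centring on the mean or the median. The 4 higher genes were Ube2c, Skp2, Cdc25a and Gmnn, the last 2 named after their values were seen. Cdc25a lost its call with a common median and unscaled, and Gmnn, at 1.09, in most alternatives, being called lower with a common median (-2.26).

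Of 6 other APC/C subunits tested, 2 were lower and none higher, with a median log2 difference of -1.67, against -1.39 over all tested genes. Both lower genes were let in by the GV arrays alone. Anapc16 was detected in 2 mutant oocytes. Its log2 difference was -4.12 (SE 0.68, adjusted p = 0.00219), and moved to -3.43 without Ago2-deficient replicate 1 and to -4.76 without Ago2-deficient replicate 3. Anapc7, a repeat subunit like Cdc16, was detected in no mutant oocyte. Its signal was 7.59-fold lower on the quantile-normalized values (fitted difference -2.93, and -1.66 with centring on the mean). With centring on the median it was not called (-1.22). Anapc11, the RING subunit that binds the ubiquitin-carrying enzyme, and Anapc10, which helps to hold substrates, were detected on all 6 arrays and were not called, at 0.12 and 0.55. With a common median or unscaled, both were called lower. Anapc11 was also called lower with centring on the mean (-1.02), and Anapc10 was called higher with cyclic loess (1.10).

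Among the ubiquitin-conjugating enzymes that serve the complex, 1 of 5 was higher and 1 lower. Ube2c, which starts chains on substrates, had a log2 signal of 20.23, 19.81 and 20.11 in mutant oocytes and 18.19, 18.44 and 18.37 in GV oocytes. No values overlapped, and the log2 difference was 1.72 (SE 0.31, adjusted p = 0.00306), but -0.24 with a common median and 0.86 with no scaling, neither called. Ube2s, which extends the chains, was not called at -1.13, but was called lower under 4 other scalings and, at -1.72, without Ago2-deficient replicate 3. Ube2d3 was not called at 0.54, but was called lower with a common median (-1.92). Ube2d1, detected in no mutant oocyte, was 3.80-fold lower on the quantile-normalized values, a call lost with cyclic loess and with both centrings.

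Of 6 spindle checkpoint genes with a probe, 3 were tested and these 3 were called lower, beside 44.8% of all tested genes, and Bub1 and Bub1b were let in by the GV arrays alone. The tested genes encode inhibitors of the APC/C with Cdc20, or a kinase that recruits them. Bub1 was detected in no mutant oocyte, and its signal was 23.2-fold lower on the quantile-normalized values. Its fitted difference was -2.95 with cyclic loess, -3.91 without Ago2-deficient replicate 1 and -5.18 without replicate 3. Bub1b differed by -1.77 and lost its call without any 1 of the GV replicates and with cyclic loess (-0.16). Mad2l1 differed by -1.67, and of the 6 fits without 1 array only that without Ago2-deficient replicate 3 called it. In the list of kinases, phosphatases and F-box adaptors that act on the complex or its inhibitors, 9 had a probe and 5 of 6 tested were called lower, beside the same 44.8%. Of the 5, Ppp2ca, Ppp2r1a and Fbxw11 were let in by the GV arrays alone. On the quantile-normalized values the phosphatase subunits Ppp2ca and Ppp2r1a, both undetected in every mutant oocyte, were 10.4-fold and 3.41-fold lower. Ppp2ca was still called, with a fitted difference of -1.58, under cyclic loess and, at -1.95, with centring on the median. The Ppp2r1a call was lost with cyclic loess and with both centrings, and its difference was 0.21 with centring on the median. Rps6ka3, a kinase, was not called at -1.29, but was called without Ago2-deficient replicate 1 (-1.83). Fbxw11, an F-box protein detected in 1 mutant oocyte, differed by -2.05 (adjusted p = 0.0483). Of the 6 fits without 1 array only that without Ago2-deficient replicate 3 called it (-2.82). Its call was kept with a common median and unscaled. It was lost with cyclic loess (-0.27) and with centring on the mean (-1.45) or the median (-1.005).

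Of 15 APC/C substrates tested, 3 were higher and 8 lower, with a median log2 difference of -1.77. Of the 8, 7 were let in by the GV arrays alone. Skp2, an F-box protein that Fzr1 brings to the complex, had a log2 signal of 15.57, 16.55 and 14.64 in mutant oocytes and 11.34, 11.20 and 11.65 in GV oocytes, a log2 difference of 4.19 (SE 0.53, adjusted p = 0.000749). It lost its call with a common median (1.23). The replication factor Cdc6 was 43.0-fold lower and the spindle kinase Aurka 16.8-fold lower, on the quantile-normalized values, both undetected in every mutant oocyte. With cyclic loess the fitted differences were smaller, at -3.19 for Cdc6 and -2.53 for Aurka, and both stayed called. Tpx2, which activates Aurka, was not called at 0.27 but was called lower with a common median (-2.35), and Birc5, survivin, was not called at -1.66, although without Ago2-deficient replicate 3 it was called at -2.37 and under 4 other scalings. On the cohesin side 3 of 12 genes with a probe were tested. Sgo2a, a protector of centromeric cohesin, was called lower at -3.03 (-3.79 without Ago2-deficient replicate 2), a call lost with cyclic loess. Pttg1ip, which binds securin, and Nipbl, a cohesin loader, were not called at -2.04 and -1.29, and Pttg1ip was called without Ago2-deficient replicate 1 (-2.57) or 2 (-1.01) and Nipbl without replicate 3 (-2.83). With a common median and unscaled both were called lower.

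**Figure D5:**
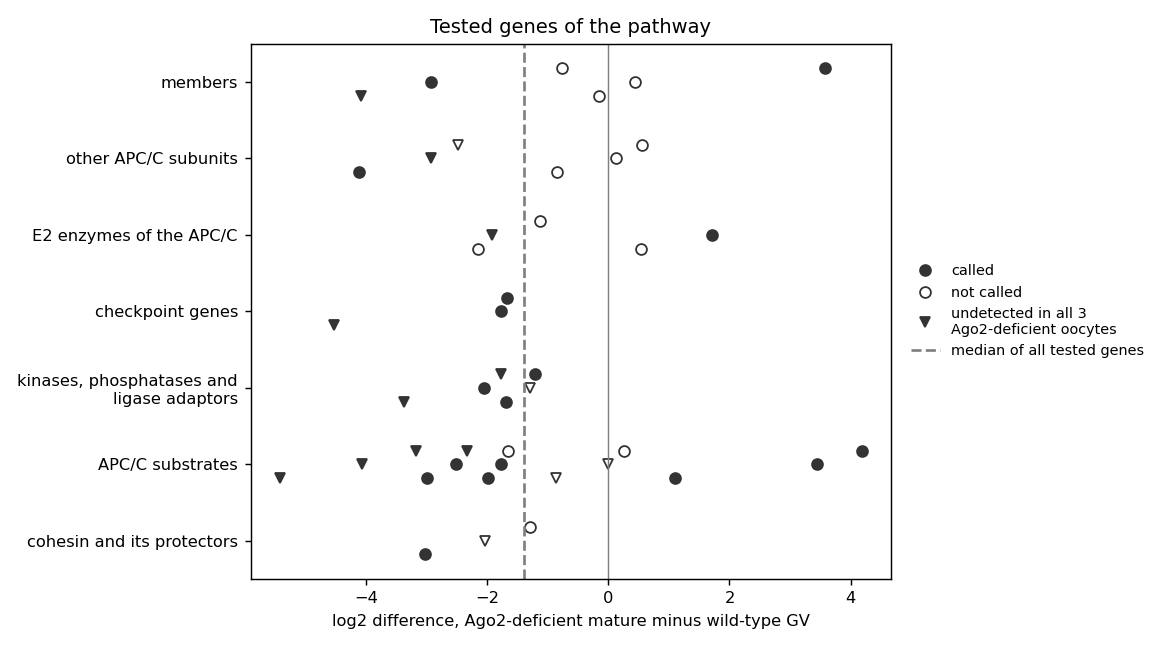
Log2 difference, Ago2-deficient mature minus wild-type GV (horizontal axis), of tested members and pathway genes; filled symbols are called, triangles are undetected in all 3 Ago2-deficient oocytes, and a dashed line marks the median over all tested genes, -1.39. Filled symbols right of 0 are Fbxo5, Ube2c, Skp2, Cdc25a and Gmnn.

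By Euclidean distance over the 6 log2 values, among 4567 other tested genes with a symbol, the genes nearest to Fbxo5 were Zmym5 (distance 1.28) and Ubl5 (1.53). Those nearest to Cdc20 were Adpgk (0.40) and Ddx17 (0.86), to Fzr1 Arrdc1 (1.19) and Fem1b (1.39), and to Cdc16 Kif4 (0.46) and Trmt10b (0.54). Anapc4 was nearest to Rpl32 (0.57) and Pecr (0.57), and Pttg1 to Olfr1449 (0.89) and Btg4 (1.58). The distance compares probe signals, which carry the brightness of each probe.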

How the data were processed

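The authors amplified the cDNA of single oocytes, hybridized digoxigenin-labelled cRNA to Applied Biosystems V2.0 mouse arrays and read them by chemiluminescence. They deposited for each probe a signal intensity without scaling between arrays, a signal-to-noise score, a flag code and log2 values quantile normalized over the 6 arrays. The series table deposited beside them held the same log2 values with 2675 cells empty, all with a flag code of 5000 or more and none of a member. Probe names came from the platform annotation, in which 14411 probes carry 1 symbol, 247 several and 18354 none. The log2 values of 8018 probes were fitted in limma 3.58.1 under R 4.3.3 (lmFit, eBayes) with Benjamini-Hochberg adjustment over these probes. Each gene is represented by its brightest tested probe. The fit was tested on simulated data with independent noise. The simulation held no difference in scaling or detection between arrays, so it does not check these. Figures used matplotlib 3.10.9 on Python 3.11.15.

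Members and lists were chosen with earlier results of these data known. Genes named are all members, in each list up to 3 called genes with the largest differences and no overlap and up to 2 uncalled genes with the highest mean, and the 2 genes nearest to a member. Whether the oocytes came from separate animals is not stated, so a p-value reflects only the spread among these oocytes, which may be technical. Precision is limited by 3 arrays a group. No scan or slide batch was given.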

Additional observations from a re-analysis of the deposited data

How the results depend on the processing

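Under 27 alternatives, 148 of 160 member values kept direction and call. Many alternatives change only a filter, a threshold or the variance estimate and return the same log2 difference. No member spot was flagged and each member has 1 probe, so leaving out flagged spots or averaging probes could not move one either. The 148 are therefore not that many separate checks. Of the other values, 6 gained a call, 1 lost it (Fbxo5, 0.90 with a common median) and 5 changed sign, none of them called. The 5 were Pttg1 with a common median (-1.25), no scaling (-0.14) and cyclic loess (-0.034), and Cdc20 in 2 fits lacking an array, Ago2-deficient replicate 1 (0.071) or GV replicate 3 (0.023), over a range of -0.396 to 0.071. Members called higher and lower numbered 1 and 2, but 0 and 4 under a common median, 1 and 4 unscaled, 1 and 3 with centring on the mean and 2 and 2 with centring on the median of probes detected on all 6 arrays. Among genes detected on all 6 arrays no member was lower (0), since Fzr1 and Cdc16 are not tested there. Leaving out 1 array gave 1 higher and 2 to 3 lower members, the third being Anapc1. Over all genes 1378 were called higher and 3543 lower, against 311 and 6223 under a common median, 609 and 4778 unscaled, 1952 and 2515 with cyclic loess, 1301 and 3145 or 1589 and 2479 with centring on the mean or the median, and 1128 and 543 among genes detected on all 6 arrays. Leaving out 1 array gave 1207 to 1957 higher and 3019 to 3812 lower genes.

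The labels name no source shared by oocytes of the same replicate number. Same-numbered oocytes did not deviate together from their group means (r = -0.0487, 0.0275 and -0.0339 across probes). With the number as a replicate block, members called stayed at 1 higher and 2 lower, all genes gave 1291 and 3384, and among pathway genes Mad2l1, Plk1 and Gmnn lost their calls while Anapc2 gained one (lower).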
